A study of Vitis vinifera with 4 samples.

Results

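The proximal promoter events of NAC61 were the DNA binding events whose summit lay 1 to 1000 bp upstream of the transcription start site (TSS) of the gene assigned to them. They were 286 of the 8558 events deposited for this transcription factor of grapevine (Vitis vinifera), and 286 of the 1879 events for which gene coordinates were used here. The 1879 events are the part of the gene assignment whose annotations stand first in alphabetical order. Annotations of the members went no further than the letter D, and genes with later names were not analysed here. Within the listed part the members made up 15.2% of the events (95% Wilson interval, 13.7 to 16.9%). They lay upstream of 268 of the 1477 genes that had a listed event. Position alone chose them: the summit, the gene's coordinates and its strand were used, and no measured value entered.

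The binding was measured by DAP-seq, in which a tagged transcription factor made in vitro is mixed with fragmented, naked genomic DNA and the DNA it retains is sequenced. The protein preparations compared were NAC61 fused to a HALO tag (HALO-NAC61, 2 replicates) and the GST-HALO fusion used as a negative control (2 replicates). Both proteins were translated in rabbit reticulocyte lysate and met DNA from young leaves of cv. ‘Syrah’. Chromatin and living cells were absent from the assay, and no DNA from another tissue was used. The peak caller pooled the replicates into 1 list of events, each 201 bp wide, with a signal (the HALO-NAC61 reads assigned to the event) and a −log10 q against the control; no value per replicate, no SD and no test over samples could therefore be given. All comparisons below are descriptions of events within that list, and their intervals cover counting error only.

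NAC proteins are plant transcription factors named after a conserved DNA-binding domain, and members of the family act in senescence, fruit ripening and responses to stress. The NAC domain recognises short elements built around CGT, read as ACG on the opposite strand. The proximal promoter is the stretch next to the TSS where the general transcription machinery assembles and where many regulatory elements lie. In the gene models used here the TSS is the annotated start of the gene, not a mapped one.

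The peak caller attached a motif k-mer, a short sequence of 7 to 11 bases learned on these same events, to 158 of the 286 members, and 45 different k-mers occurred. The most frequent k-mer of each family (for TTGCGTA, 1 of 2 equally frequent ones) is shown because the families differ in the bases on either side of CGT; capitals mark the core that the k-mers of a family share. Each is written in 1 orientation, N stands for any base, and the site may lie on either strand.
Family TTGCGTG: gTTGCGTG
Family TGACGTG: aTGACGTG
Family TTGCGTA: aTTGCGTA
Family TGCGTG, outside a longer core: TGCGTGt
Family TAGCGTG: TAGCGTGt
Family TGNCGTG: TGNCGTGt
Family TGGCGTG: TGGCGTGt
Family TTGCTTG: aTTGCTTGt
The TTGCGTG family was the most common, with 62 members (39.2% of the members with a k-mer, against 35.4% of all listed events with one). TGACGTG followed with 24 members, TTGCGTA with 15, TGCGTG outside a longer core with 13, TAGCGTG and TGNCGTG with 12 each, and TGGCGTG with 11. The TTGCTTG family, the only one without CGT, had 5 members (3.16%, against 6.52% of the listed events with a k-mer), and 4 members had a k-mer outside these families. CGT or its complement stood in the k-mer of 153 of the 158 members.

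The members were densest next to the gene. In consecutive 100 bp windows from the TSS outwards they numbered 57, 43, 48, 29, 19, 15, 19, 12, 26 and 18. The 3 windows nearest to the TSS thus held 148 members (51.7%, 95% Wilson interval 46.0 to 57.5%), and 196 lay within 500 bp. The density dipped just past the annotated start, with 57 summits in the 100 bp before it and 23 in the first 100 bp of the gene. Over 500 bp on each side the counts were closer, 196 before the start and 176 from it on, whether or not the gene was that long. A small second rise, of 26 events, stood 801 to 900 bp upstream. At the outer limit the count was 18 in the last 100 bp inside and 9 in the next 100 bp outside. Each event was assigned to its nearest gene, and the sequence open to assignment in each window was not measured. Whether the fall with distance follows from the assignment was not tested.

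**Figure D1:**
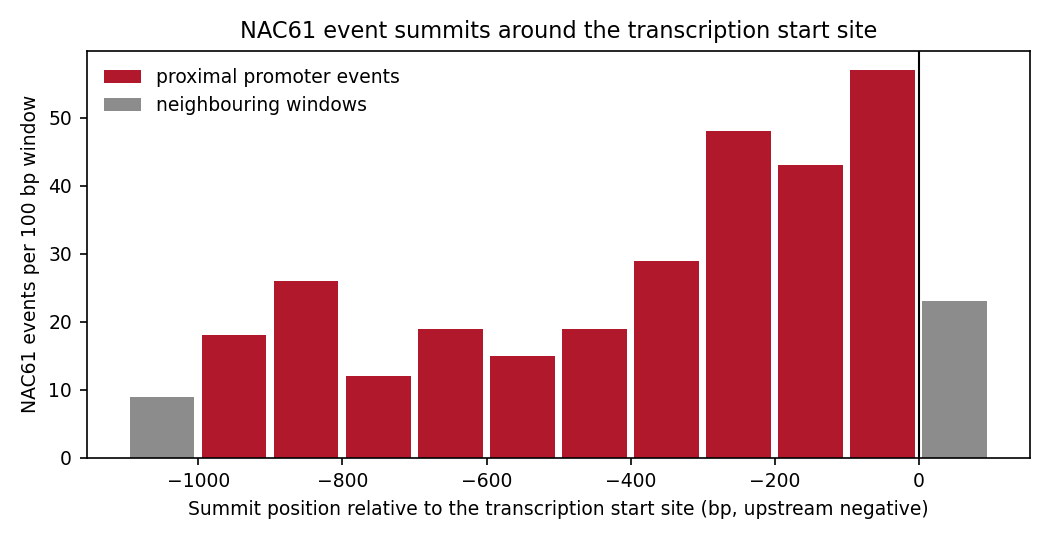
Number of NAC61 event summits in windows of 100 bp against position relative to the annotated TSS (bp, upstream negative), with the 10 proximal promoter windows in red and the neighbouring windows in grey. The window next to the TSS held 57 events, against 23 in the first 100 bp of the gene and 9 in the first 100 bp past the outer limit.

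Events on either side of the limits had mixed values. Just inside the 1000 bp limit lay the events of the cellulose synthase gene CESA2 (998 bp, 73 reads, −log10 q 6.18), of auxin response factor 16 (997 bp, 69 reads, 5.71) and of a calcineurin B gene (993 bp, 110 reads, 15.51). Just outside it were those of the DNA damage kinase gene Ataxia telangiectasia and Rad3 related (1015 bp, 60 reads, 3.32), VvAP27 (1021 bp, 150 reads, 29.48) and DDB1A (1027 bp, 90 reads, 10.39). The summit nearest to a TSS was that of VvbZIP03, 2 bp upstream, and the next were those of a 1,4-beta-mannan endohydrolase gene at 4 bp and a LON-domain protease gene at 6 bp. Just inside a gene lay the events of the auxin-responsive gene VIT_12s0057g00460 (66 reads, 5.21) and of VvABCG50 (50 reads, 2.78), both 1 bp past the TSS, and of a cyclopropane-fatty-acyl-phospholipid synthase gene (87.4 reads, 8.13), 5 bp past it.

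The members were spread over the genome. They fell on all 19 chromosomes, with 3 on unanchored sequence, and on 143 plus-strand and 143 minus-strand genes. Chromosomes 17 and 18 carried 24 each and chromosome 13 carried 23, whereas chromosomes 11 and 15 carried 6 each. On chromosome 17 members were 22.4% of the listed events and on chromosome 11 they were 6%.

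Proximal promoter events were not the strongest events of the list. Their signal ran between 39 and 265 reads with a median of 85.1 (95% order-statistic interval, 81 to 90), against a median of 90 (87.6 to 92) and a maximum of 1423.4 for the 1593 other listed events; the intervals overlapped. Of the 286 members, 5 reached 200 reads, and of all 8558 events 245 did. Most events of the whole list had no gene coordinates here and could not be members. By signal, 12 members were among the 600 highest events (4.20%, Wilson interval 2.42 to 7.19%), where the share over all events was 7.01%. By −log10 q the count was 19 (6.64%), with the same share of 7.01% over all events, and 9 members were in both rankings.

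The significance of the members stood close to that of the whole list. The −log10 q ran between 2.01 and 45.64 with a median of 6.42 (6.04 to 7.31), against 7.21 (6.94 to 7.64) for the other listed events, again with overlapping intervals. A −log10 q of at least 5 was reached by 188 members (65.7%, 60.1 to 71.0%), where 66.9% of all events did. Another 37 members lay under 3.

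Over the whole 1 kb on either side of the TSS, events before the gene had a lower signal than those inside it. The members had their median of 85.1 reads (81 to 90), against 96 reads (92 to 103) for the 277 events in the first 1 kb of the gene, and these intervals did not overlap. Next to the start they did. The median was 86.5 reads (81.2 to 92.4) within 500 bp upstream. It was 94.95 (90.2 to 102.6) in the 500 bp from the start on, whether or not the gene was that long. A −log10 q of 5 was reached by 65.7% of the members (60.1 to 71.0%) and by 73.3% of the events inside (67.8 to 78.2%), where the intervals did overlap. The 342 events 1 to 5 kb upstream had a median of 82 reads (78 to 88). Deeper inside genes the median was 92 reads (89 to 96.7), and at the remaining 555 listed events, which lay farther upstream or past the gene's end, it was 86 (82 to 91).

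K-mers were more frequent among the members than among events far from gene starts. A k-mer was given at 55.2% of the proximal promoter events (49.5 to 60.9%), where 40% of all listed events had one. The share was 47.3% in the first 1 kb of genes (41.5 to 53.2%), 42.1% 1 to 5 kb upstream (37.0 to 47.4%), 32.0% deeper inside genes (27.7 to 36.6%) and 33.2% elsewhere (29.4 to 37.2%). The interval of the members did not overlap those of the last 3 classes and did overlap that of the gene starts.

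Inside the window the share was level, at 56.1% within 100 bp, 57.1% at 101 to 300 bp, 54.0% at 301 to 600 bp and 53.3% at 601 to 1000 bp. It did not end at the 1000 bp limit. Among 64 events 1001 to 1500 bp upstream it was 54.7% (42.6 to 66.3%), whereas 1501 to 2000 bp upstream it was 39.0% (27.6 to 51.7%, 59 events). Signal did not order it either. It was 54.2% for the 131 members at or above the listed median of 89 reads and 56.1% for the 155 below it. The other listed events gave 34.4% (31.2 to 37.7%) at or above that median and 40.3% (36.9 to 43.8%) below it, so the gap to the pooled other events was present in both ranges of signal. Against the nearest classes it was less clear. Below the median the share was 56.1% for members (48.3 to 63.7%), against 52.9% in the first 1 kb of genes (43.3 to 62.3%) and 38.9% 1 to 5 kb upstream (32.3 to 45.9%). At or above it the share was 54.2% for members (45.7 to 62.5%), against 44% (36.9 to 51.4%) and 46.3% (38.5 to 54.3%) in the same classes. Of these 4 intervals only the one below the median 1 to 5 kb upstream did not overlap that of the members.

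**Figure D2:**
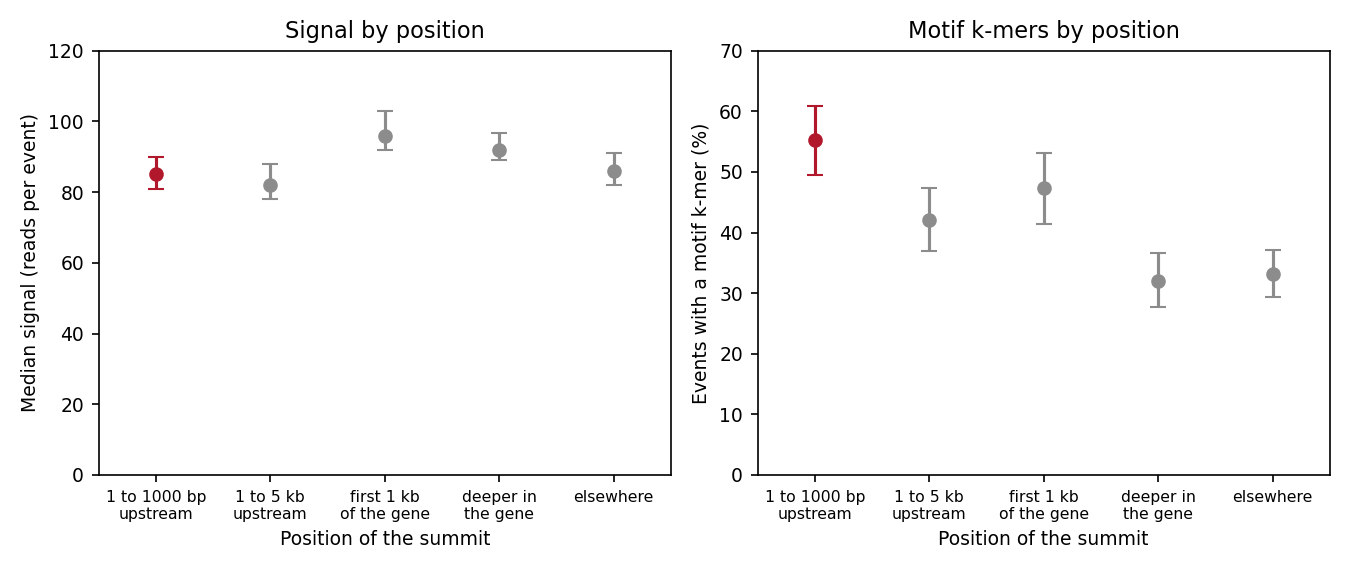
Median signal in reads per event with its 95% order-statistic interval (left) and percent of events with a motif k-mer with its 95% Wilson interval (right), by position of the summit, with the proximal promoter events in red. The members had a median of 85.1 reads, against 96 in the first 1 kb of genes, and a k-mer at 55.2%, against 47.3% there.

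Presence of a k-mer and strength of an event were not tied among the members. The 158 members with a k-mer had a median of 84.7 reads and the 128 without one a median of 86.5, with overlapping intervals (81 to 90, and 78 to 92). Of the 10 members with the highest signal, 4 had no k-mer. By family the median signal was 94 reads for TGNCGTG, 87.1 for TTGCGTG, 85.5 for TGACGTG and 76 for TGCGTG. These medians lay within the ranges of one another's members, since each of these families held events under 60 reads and events above 150. The TGNCGTG events lay farthest out, with a median of 705 bp upstream, against 238.5 bp for TTGCGTG.

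Signal and −log10 q rose together across the members (Spearman's rho 0.748 over 286 events of the same pooled libraries, given as a description), yet equal signals could carry very different q. Alpha-dioxygenase 2 (VIT_17s0000g02700), an enzyme that oxygenates fatty acids, and the dehydrin gene VvDHN2 (VIT_18s0001g00360) both had 131 reads, with a −log10 q of 3.46 and of 18.05. The bHLH gene bHLH081 had 135 reads and 5.47, and SPATULA, a bHLH factor of carpel development in Arabidopsis, had 134 reads and 18.71. The control reads that enter the q were not analysed here. Distance was only loosely tied to either measure, with a rho of −0.13 to the signal and −0.14 to the −log10 q. The share of events with a −log10 q of at least 5 was highest 101 to 300 bp upstream, at 76.9% (67.3 to 84.4%), and was 59.6% within the nearest 100 bp (46.7 to 71.4%).

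**Figure D3:**
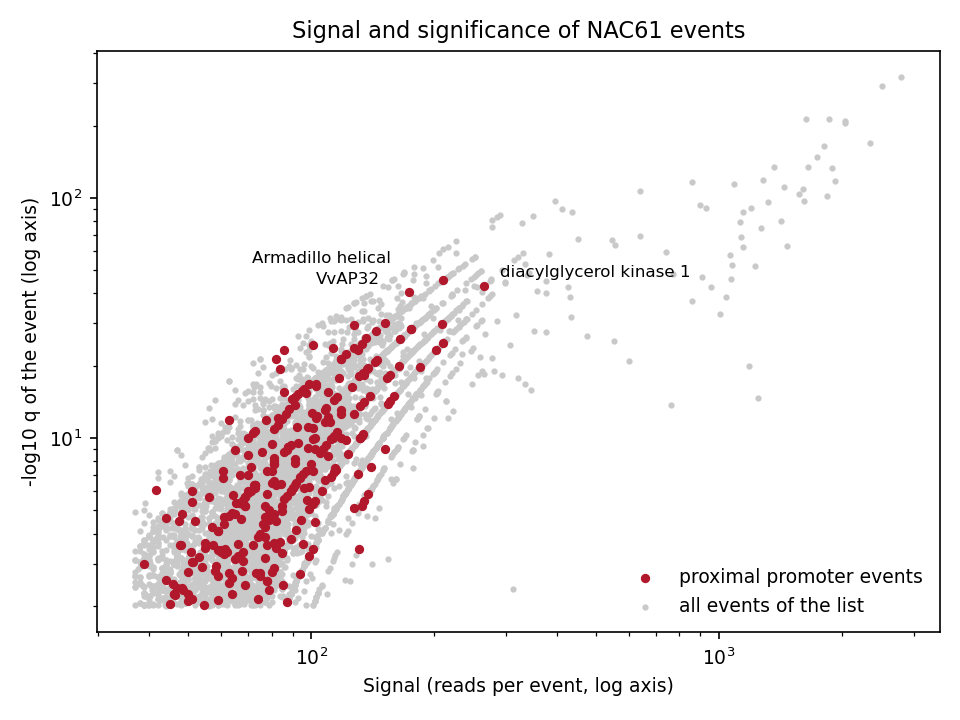
Signal in reads (log axis) against −log10 q (log axis) for the 286 proximal promoter events in red and for the 8558 events of the list in grey. The members end at 265 reads, at diacylglycerol kinase 1, while the list goes on to 2801.9 reads.

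The strongest member lay upstream of diacylglycerol kinase 1 (VIT_17s0000g06970), which makes the lipid messenger phosphatidic acid. Its interval, chr17:7808979-7809179 of the 12X.v2 assembly, had its summit 554 bp before this minus-strand gene and held 265 reads with a −log10 q of 43.06 and the k-mer aTGACGTGtt. The same gene had a second event 558 bp inside it, with 154.5 reads but a −log10 q of 3.14. In rank of signal the promoter event was number 99 of the 8558 events.

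The highest −log10 q of the members, 45.64, was at an Armadillo helical protein gene (VIT_14s0060g01650, chr14:1334208-1334408), 61 bp upstream and with 211 reads. Armadillo repeats are protein interaction modules. No k-mer was given there, nor at the Armadillo/beta-catenin repeat gene VIT_12s0059g01340, where the event 126 bp upstream had 165 reads and 25.8. VvAP32 (VIT_13s0019g01980), an aspartic protease gene, followed diacylglycerol kinase 1 in q with 40.52, at 80 bp and 174 reads (chr13:3395168-3395368, k-mer TAGCGTGt).

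The other strong members served unlike functions. CYP86B1 (VIT_01s0011g02060, chr1:1747415-1747615), whose Arabidopsis counterpart hydroxylates very long chain fatty acids of suberin, had 210 reads 576 bp upstream, a −log10 q of 24.85 and the k-mer TGGCGTGt. Auxin response factor 10 (VIT_08s0040g01810, marker ARF7, chr8:12923218-12923418) had 209 reads and 29.87 at 781 bp, without a k-mer. An auxin-induced beta-glucosidase gene (VIT_07s0005g01300) had 202 reads and 23.18 at 119 bp with gaTTGCGTGt, and an ATP-binding protein gene (VIT_18s0001g08460) had 185 reads and 19.76 at 68 bp with the long k-mer ggTTGCGTGtt. A 2OG-Fe(II) oxygenase gene (VIT_09s0002g00770), of a large family of oxidising enzymes, had 176 reads and 28.4 only 19 bp before its start. High q at a lower signal was seen at the ABC transporter VvABCB23 (152 reads, 30.0 at 137 bp) and at a bromodomain gene (VIT_03s0097g00570, 127 reads, 29.57 at 309 bp).

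At 18 genes the proximal promoter held 2 events, and at the other 250 genes it held 1. The events of such a gene were 122 to 646 bp apart (median 407), and 4 of the 18 pairs were at most 200 bp apart. The nearer event had the higher signal at 11 genes. At 12 genes the signals differed by less than 1.5-fold, and at 2 by 2-fold or more. Each pair had at least 1 k-mer: both events had one at 5 genes and 1 event at the other 13. At 6 genes both events reached a −log10 q of 5. Taken singly, 65.7% of all 286 members reached it and 55.2% had a k-mer.

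The strongest event of a pair was at ECA1 (VIT_06s0004g03900), a calcium pump of the endoplasmic reticulum. Its far event, 641 bp upstream, had 175.5 reads, a −log10 q of 28.4 and cTTGCGTGtt, while the near one at 248 bp had 87.5 reads and 9.15 without a k-mer. Paired events of alike strength were found upstream of the cofilin gene (VIT_13s0019g00550), whose product severs actin filaments. They had 114 reads and 14.38 at 136 bp, and 96 reads and 16.04 at 657 bp. The allergen gene VIT_05s0020g04050 had a k-mer at both, with 87.7 reads at 103 bp (gTTGCGTGt) and 103.3 reads at 570 bp (ggTTGCGTA).

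Other pairs were uneven in q. The aldo/keto reductase gene AKR (VIT_05s0062g00980) was also the most uneven in signal. It had 136.6 reads and 26.15 at 121 bp, and 47.4 reads and 4.52 at 271 bp. VvbZIP03 had 85.2 reads and a −log10 q of 2.44 at 2 bp, and 112.8 reads and 23.71 at 124 bp. A class IV chitinase gene (VIT_05s0094g00340), of an enzyme that degrades chitin, had 83.8 reads and 19.47 at 341 bp, and 48.2 reads and 4.82 at 811 bp. At arginine-tRNA-protein transferase 1, an enzyme of protein turnover, the event at 208 bp had 81.9 reads and 21.38 and that at 645 bp had 51.1 reads and 3.06. The biotin carboxylase gene of acetyl-CoA carboxylase, the first step of fatty acid synthesis, had 2 weak events, at 54.5 reads and 2.01, and 48.5 reads and 2.34.

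**Figure D4:**
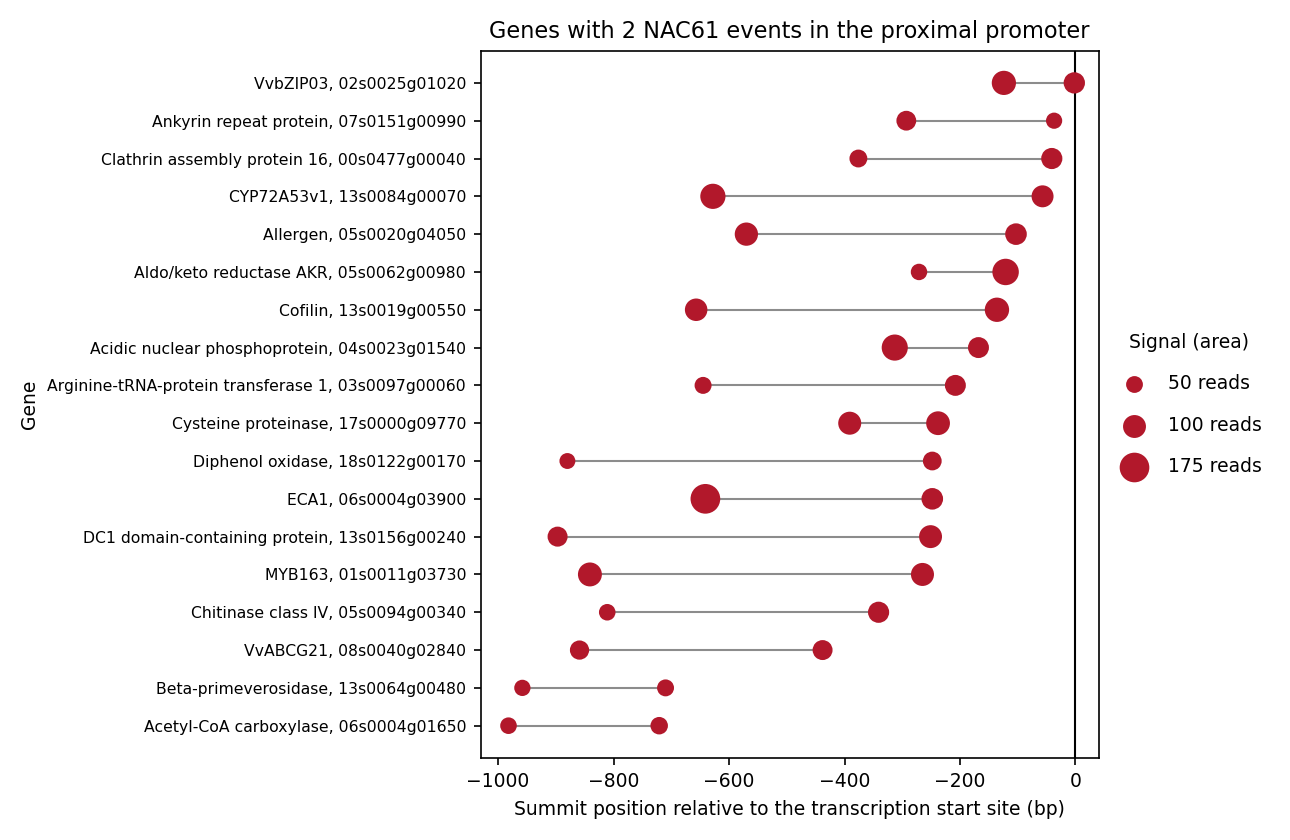
Positions (bp relative to the annotated TSS) of the paired NAC61 events upstream of 18 genes, with the area of each point proportional to the signal in reads. The spacing ran between 122 and 646 bp, and the largest point, 175.5 reads, is the far event of ECA1.

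A close neighbour was found at a larger share of the members than of the other listed events. Another event lay within 500 bp of 31 members (10.8%, 7.74 to 15.0%), against 95 of the other listed events (5.96%, 4.90 to 7.24%). For 26 of the 31 the neighbour was the other proximal event of the same gene, so both events of a pair were counted. The intervals take events as independent and are therefore too narrow, and their narrow separation is not a result. Of the genes with a member, 60 also had 73 listed events outside the window, 20 of them in the first 1 kb of the gene and 20 between 1 and 5 kb upstream. One gene, the diacylglycerol kinase gene VIT_11s0052g01840, had 4 listed events in all. At the aromatic and neutral transporter 1 gene (VIT_05s0062g01140) the proximal event at 115 bp had 92.4 reads and 11.1, against 196.6 reads and 35.49 for an event 166 bp inside the gene.

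Grouped by keywords in their annotation, 138 of the 268 genes fell into 13 functional groups. Listed genes are those with a listed event at any position. Of all listed genes, 18.1% had a member, and the groups ranged from 12% to 41.9%. Genes without a listed event were not counted, so these are not shares of whole gene families. The lists are short, were read from an alphabetical part of the annotation and were chosen with results of these data known, so their counts are descriptions.

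Auxin genes had a member at 14 of 53 (26.4%), with a median signal of 94 reads, against 85.1 over all members. Besides the response factor and the beta-glucosidase above, they included AIR12, a membrane cytochrome protein (154 reads, 13.87 at 315 bp), and SAUR32, of a family of small auxin-induced growth proteins (133 reads, 10.22 at 91 bp). Auxin efflux carrier protein 8 (VIT_04s0023g00320), of a family that moves auxin out of cells, had 132 reads and 10.05 at 624 bp with gTTGCGTGtt. Other SAUR genes did not reach a −log10 q of 5, with 87 reads and 2.07 (VIT_06s0061g00390) and 63 reads and 2.74 (VIT_03s0038g01310).

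Genes of other hormones had a member at 10 of 29, at a median signal of 78.5 reads. Of these 10 events 4 reached a −log10 q of 5, where 65.7% of all members did. The highest q was at AOS (VIT_03s0063g01850), allene oxide synthase of jasmonate synthesis, with 118 reads and 21.38 at 76 bp and ggTTGCGTGt. The jasmonate receptor gene Coronatine-insensitive protein 1 had 61.6 reads and 3.44. In the ethylene pathway an ACC synthase gene, of the precursor of the hormone, had 63 reads and 4.72, and the negative regulator CTR1 had 70 reads and 7. RAN1, the copper pump that supplies the ethylene receptors in Arabidopsis, had 99 reads and 6.28. The brassinosteroid regulator BZR1 had 79 reads and 4.56, and the gibberellin repressor GAI1 had 78 reads and 3.58.

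Calcium signalling genes had a member at 18 of 79 (22.8%), and 15 of their 19 events reached a −log10 q of 5, where 65.7% of all members did. They included pumps, sensors and proteins that act on the signal of the sensors. Among pumps, ECA1 led and the plasma membrane pump ACA13 had 67 reads and 5.37. Among sensors, calcineurin B protein 10 had 145 reads and 21.18 at 98 bp, CAM7 had 118.1 reads and 10.04, and the calmodulin gene VIT_01s0010g02930 had 83 reads and 12.14. Among proteins that act on their signal, the kinase CIPK1 had 98 reads and 11.1, and the calmodulin-binding IQD21 had 97 reads and 15.48 with gcTTGCGTGt.

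Transcription factors of the bZIP, bHLH and MYB families had a member at 10 of 58 listed genes, with 12 events and a median of 105.5 reads. The MYB genes with a member, MYB163 and MYB164, have annotations that open with a bracket and so sort early. Genes of these families with later names were not analysed here, so the count does not cover the families. The highest signal of the group was at MYB164 (153 reads, 17.74 at 344 bp), and MYB163 had a pair of events of 110 and 101 reads. VvbZIP22 had 139 reads and 14.93 at 131 bp with aTGACGTGt. VvbZIP41 had 91 reads and 8.19, and VvbZIP05 had 69 reads and 5.23 at 951 bp. In the lower part of the group, bHLH043 had 75 reads and 2.66.

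Genes of chromatin and small RNA had a member at 8 of 21. They included genes of RNA silencing. DCL1, which cuts microRNA precursors, had 103 reads and 16.8 at 303 bp with tTTGCGTG, and AGO2, an effector of antiviral silencing in Arabidopsis, had 82.9 reads and 11.36 at 114 bp. Chromomethylase 2, a DNA methyltransferase, had 74 reads and 3.87, and the nucleosome remodeller BRAHMA had 75 reads and 4.

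Ion, metal and metabolite transporters had a member at 15 of 52 genes (28.8%), led by genes of aluminium-activated malate transporters, which are anion channels. VIT_02s0012g01030 had 156 reads and 14.24 at 984 bp, and VIT_15s0046g00130 had 134 reads and 10.39 at 102 bp with ggTTGCGTGt. Events at genes annotated as ammonium transporter 2 had 99 reads and 5.07 (VIT_08s0058g00140) and 79.2 reads and 4.70 (VIT_00s0179g00310). ABC transporters had a member at 7 of 50 listed genes (14%), a share under that of all listed genes. Apart from VvABCB23, the best was VvABCG30 with 114 reads and 10.23, and VvABCG55 had the lowest signal of all members, 39 reads.

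Genes for dehydration and osmotic stress had a member at 8 of 37. Betaine-aldehyde dehydrogenase (VIT_17s0000g07670), which makes the osmoprotectant glycine betaine, had 144 reads and 27.93 at 352 bp. The dehydrins, hydrophilic proteins that protect drying cells, ranged from VvDHN2 with 131 reads (gTTGCGTG at 468 bp) through VvDHN4 with 80.9 reads and 10.93 to VviDHN1b with 47.6 reads and 3.58. Aquaporin TIP1;3, a water channel of the vacuole, had 59 reads and 2.67.

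Defence genes had a member at 12 of 45 (26.7%). Of their 14 events 10 had a k-mer, where 55.2% of all members did. A chitinase gene (VIT_04s0008g00140) had 130 reads and 7.08 at 219 bp, and a beta-1,3 glucanase gene, of an enzyme acting on fungal walls, had 118 reads and 12.61 at 394 bp with aTTGCGTGt. Another chitinase gene (VIT_05s0062g01320) had 67 reads and 5.37. Intracellular receptor genes spanned a like range. A CC-NBS-LRR gene (VIT_19s0027g01570) had 106 reads and 6.04, RPP8 had 66 reads and 3.22, and an NBS-LRR gene (VIT_14s0066g00780) had 51.9 reads and 4.51.

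Proteases and their inhibitors had the highest share of listed genes with a member, 13 of 31 (41.9%), with a median of 87.5 reads. Among them were 5 aspartic protease genes, VvAP32 far ahead of VvAP7 (70 reads, 10.05), VvAP3 (69 reads, 5.71), VvAP9 (65 reads, 4.84) and VvAP23 (50 reads, 2.10). Of the cysteine proteinase genes, VIT_03s0038g00280 had 117 reads and 17.83 at 94 bp and VIT_17s0000g09770 had 2 events of 108.3 and 100.7 reads. Inhibitors of this class of enzyme also had members, a cysteine protease inhibitor gene with 102 reads and 10.01 at 32 bp and a cystatin gene with 94 reads and 6.83 at 103 bp.

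Flavonoid genes had a member at 5 of 17, and all 5 reached a −log10 q of 5, where 65.7% of all members did. The gene annotated as chalcone synthase 2 (VIT_14s0068g00920, marker CHS1, chr14:24672514-24672714), for the entry enzyme of the pathway, had 164 reads and 20.02 at 846 bp with TGNCGTGt. Anm1 had 143 reads and 20.73 at 208 bp. A dihydroflavonol reductase gene (VIT_15s0048g01010, marker DFR5) had 135 reads and 14.15 at 119 bp with ggTTGCGTGt. The remaining genes, for chalcone reductase and ATAN11, had 73 and 71 reads.

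Cytochrome P450 genes had a member at 6 of 50 (12%), the lowest share of the groups. Aside from CYP86B1 they included CYP86A8, of the same family of fatty acid hydroxylases, with 51 reads and 6.04 at 118 bp, and CYP72A53v1 with events of 91 and 123 reads. Armadillo and ankyrin repeat genes had a member at 13 of 63, with a median of 101 reads and 11 of 14 events at a −log10 q of at least 5, where 65.7% of all members reached it. Beyond the 2 Armadillo genes above, VIT_00s0225g00100 had 151.9 reads and 8.99 with gaTTGCGTG, and VIT_06s0004g06750 had 103 reads and 16.49 at 39 bp.

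**Figure D5:**
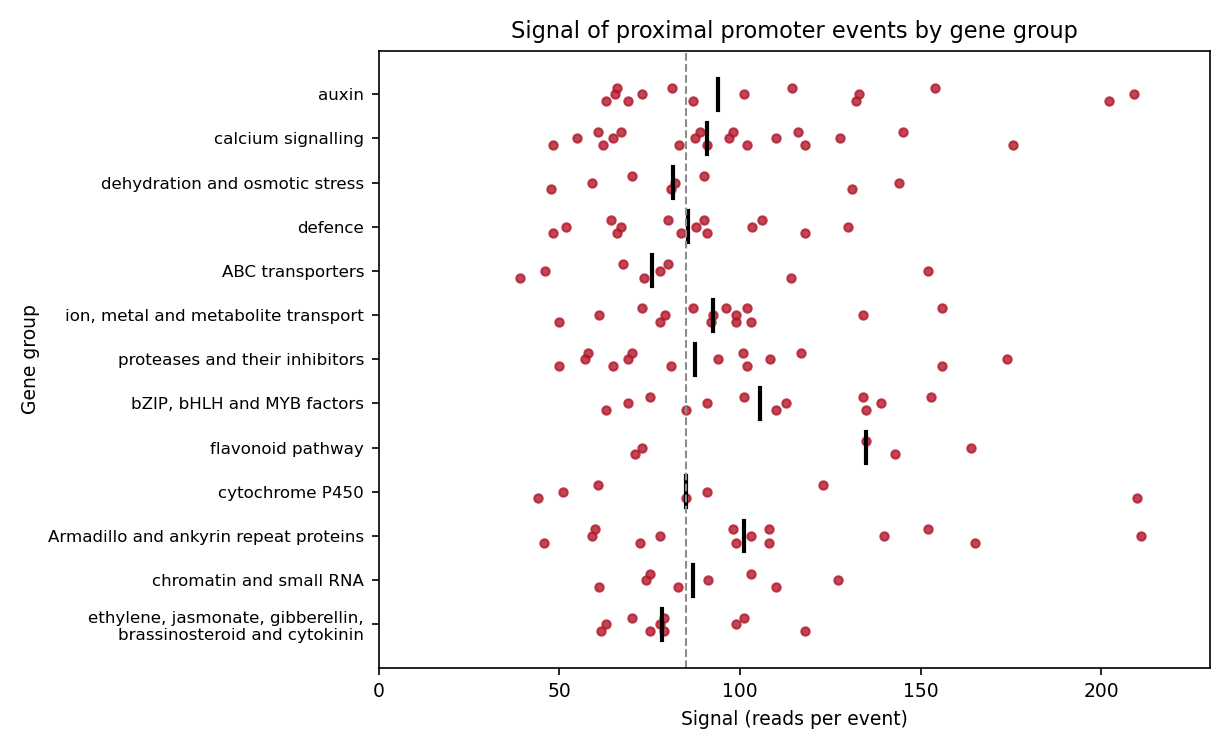
Signal in reads of each proximal promoter event in 13 keyword groups of genes, with the group median as a black bar and the median of all 286 members, 85.1 reads, as a dashed line. The flavonoid group had the highest median, 135 reads over 5 events, and ABC transporters the lowest, 75.7 reads over 8 events.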

How the data were processed

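DAP-seq libraries of 2 HALO-NAC61 and 2 GST-HALO control samples were reduced by the authors to 1 pooled event list. Per the labels' processing notes, fastp 0.21.0 and Bowtie2 2.0 were used, and the study's methods give alignment to PN40024 12X.v2, removal of reads with low mapping quality, and GEM in replicate mode against the control on nuclear chromosomes. Pooling hides differences between replicates, and 60 members had a fractional signal. In the deposited list the signal is the number of HALO-NAC61 reads of an event, and the −log10 q is the peak caller's. The score deposited by the authors was not used. Depth per library was not analysed here.

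Events were joined by name to the authors' gene assignment (nearest gene, version 1 models placed on 12X.v2), of which 1879 events were used and its own values left out. The TSS was the gene start on the plus strand and the gene end on the minus strand, and the summit is the position GEM gives. Medians have order-statistic and shares Wilson 95% intervals, tested on simulated data (Python 3.11.15, pandas 2.3.3, scipy 1.17.1, matplotlib 3.10.9). No test was made over regions. Genes named were taken from the 10 members highest in signal and in −log10 q, from genes with 2 members and from the keyword groups. The 3 events nearest to each side of the limits were also named. Not every gene with 2 members or in a keyword group was named. Alpha-dioxygenase 2 and the genes with events outside the window were named after their values were seen. The members and gene lists were chosen with earlier results of these data known. Alternatives were minimum −log10 q values of 3 and 5, distance from the interval's start, limits of 500 and 2000 bp, 1 event per gene, ranking by −log10 q and k-mers without N. The split of k-mer shares by signal and by 500 bp windows was added after seeing the data.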

Additional observations from a re-analysis of the deposited data

How the results depend on the processing

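Of the recomputed values, 37 stayed within their interval or within 1.5 times the count, and 10 moved. A −log10 q of at least 5 left 188 members with a median signal of 99 reads, and under minimum values of 3 and 5 the median −log10 q was 7.33 and 9.83, since these filters remove the weakest events. Genes with 2 members numbered 11 and 6 under those filters, and 6 with a limit of 500 bp. The share of members within 300 bp was 75.5% with a limit of 500 bp and 36.2% with a limit of 2000 bp, which follows from the size of the window. It was 45.4% when distance was measured from the interval's start, and the cause was not tested. The members' k-mer share and their share among the 600 highest events did not move under any of these settings. The shares of the other events were not recomputed, so the contrast with them was not tested this way. No replicate could be left out, and no paired analysis was possible because the replicates share 1 pooled list with no value of their own. The list holds no event under a −log10 q of 2, so weaker binding is not seen.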
